A study of Mus musculus with 9 samples.

Results

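The genes described here are 9 receptor tyrosine kinases known from hematopoiesis, Flt3, Kit, Pdgfrb, Insr, Igf1r, Tie1, Tek, Axl and Mertk, out of 50686 genes counted in each library. They were taken by name, and 4 of the 9 (Flt3, Insr, Igf1r and Axl) had enough reads to pass the filter on low counts, which left 13852 genes for testing. RNA-seq was performed on bone marrow cells of C57BL/6N background that had been immortalized with BCR/ABLp185, the smaller fusion kinase of lymphoid leukemia, and that were wild type (wt), lacked Stat5a (Stat5a-/-) or lacked Stat5b (Stat5b-/-). All 3 groups carry the oncogene and grew in serum-containing medium, and no treatment is named. Each genotype is 1 cell line in 3 technical replicates, so that the p-values below measure the spread between libraries of a line, and a difference between genotypes cannot be told apart from a difference between single lines.

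Receptor tyrosine kinases are surface proteins that pair up when a ligand binds, phosphorylate each other and recruit adaptors of the RAS, PI3K and PLCγ pathways. Flt3 and Kit serve early progenitors, and Flt3 is also carried by early lymphoid cells, where it is turned off when the B-cell factor Pax5 takes over. Pdgfrb marks stromal cells and pericytes, Tie1 and Tek (Tie2) endothelium and some stem cells, and Axl and Mertk are TAM receptors that macrophages use to take up dying cells. Insr and Igf1r bind insulin and the insulin-like growth factors (IGFs) in most cells. BCR/ABL is itself a constitutively active tyrosine kinase that feeds many of the same adaptors.

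Libraries held between 11948136 and 19016396 counted reads. Levels are normalized CPM, that is reads scaled to the size of each library, and 3 reads in a library correspond to between 0.152 and 0.27 CPM. Stat5a was at 43.1 ± 6.35 CPM (SD, n = 3 libraries, as for all means below) in wt and 12.4 ± 1.02 in Stat5a-/-. Stat5b was at 106 ± 1.96 CPM in wt and 63.4 ± 7.72 in Stat5b-/-, and whether the counted exons lie in the deleted parts is not given. Of 14 B-progenitor markers, all were detected in wt and Stat5b-/- libraries and 13 or 14 in Stat5a-/- libraries, with summed levels of 5920 to 6130 CPM in wt, 7740 to 8280 in Stat5a-/- and 7080 to 7760 in Stat5b-/-. Against wt, 7 of the 14 were higher and 3 lower in Stat5a-/-, and 7 higher and 5 lower in Stat5b-/-, which with the T-cell covariate described next became 7 and 3, and 4 and 4. Rag1 and Rag2, the recombinase genes, were nearly lost from both knockouts, at 64.7, 0.158 and 0.667 CPM and 32.5, 0.0767 and 0.677 CPM in wt, Stat5a-/- and Stat5b-/-. All 16 of 16 T-cell markers were also detected in every library. Their summed level was 634, 906 and 830 CPM in wt replicates 1 to 3, 1100, 1110 and 933 in Stat5a-/- and 2080, 1380 and 1940 in Stat5b-/-, so that it separated the 3 lines. Because of this, each comparison was also run with that sum as a covariate, an alternative chosen after the data were seen. Whether the T-cell transcripts came from other cells in the cultures or from the lines themselves was not tested, so that a covariate value does not say which of these it adjusts for. The slope of that fit rests on the spread among 3 libraries of a line. A lower level of a transcript in a bulk library can come from fewer cells of a type or from less RNA per cell, which cannot be told apart.

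Across the 9 receptors, the only change past the threshold (adjusted p under 0.05, edgeR quasi-likelihood test) in Stat5a-/- against wt was a lower Flt3. In Stat5b-/- against wt, Flt3 was lower and Igf1r was higher, and in Stat5b-/- against Stat5a-/- Flt3 was higher. Among the 4 tested members, 0 were called higher and 1 lower in Stat5a-/- against wt, where 19.8% and 16.3% of all tested genes were called higher and lower. For Stat5b-/- against wt, 1 was called higher and 1 lower, beside 24.2% and 22% of all genes. For Stat5b-/- against Stat5a-/-, 1 was called higher and 0 lower, beside 16.4% and 17.5% of all genes. With so many genes called in these lines, a call in 1 of 4 members is near the background share. Where a count of members was 0, edgeR at an unadjusted p under 0.05 and DESeq2 also counted 0. The counts of called genes from the other lists, above and below, stand beside these same shares of all genes. For the fits with the T-cell covariate the share of all genes called is not given here. A fall in a count under the covariate can therefore not be set against it.

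**Figure D1:**
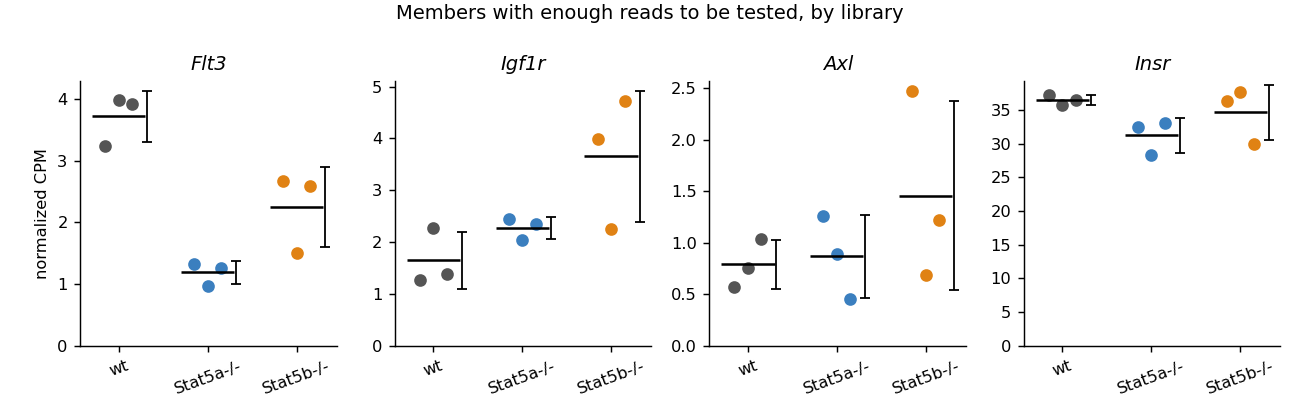
Normalized CPM (y axis, linear) of Flt3, Igf1r, Axl and Insr in the 9 libraries, grouped by genotype; points are libraries, long lines means and bars SD over 3 libraries. The 3 lines do not overlap for Flt3, whereas for Igf1r and Axl Stat5b-/- replicate 2 falls to the level of the other lines.

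Flt3, the receptor of FLT3 ligand, lies on the minus strand of chromosome 5 (GRCm38, chr5:147330741-147400489; ENSMUSG00000042817.15). It was at 3.24, 3.99 and 3.93 CPM in wt, 1.33, 0.976 and 1.26 in Stat5a-/- and 2.67, 1.5 and 2.59 in Stat5b-/-. The order was wt, then Stat5b-/-, then Stat5a-/-, and none of the 3 groups overlapped. These levels rest on 198, 45 and 95 reads over the libraries of a line, that is 51 to 79, 12 to 19 and 22 to 39 reads a library.

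Flt3 was 3.11-fold lower in Stat5a-/- than in wt, with a log2 fold change of -1.64 (SE 0.27, 95% interval -2.21 to -1.06, adjusted p = 2.93e-04, edgeR). This call held under all 17 alternatives, with log2 fold changes from -2.01 to -1.53. In Stat5b-/- Flt3 was 1.66-fold lower than in wt, at -0.73 on the log2 scale (SE 0.24, adjusted p = 0.0223), and 1.88-fold higher than in Stat5a-/-, at 0.91 (SE 0.29, adjusted p = 0.027). The last call was lost with the T-cell marker covariate (0.19, adjusted p = 0.813), under which the Stat5b-/- against wt value was -1.82 (adjusted p = 0.0363). Leaving out single libraries also ended both Stat5b-/- calls, with an adjusted p of 0.0677 without wt replicate 2, 0.0683 without wt replicate 3 and 0.0912 without Stat5b-/- replicate 2 against wt. Against Stat5a-/- it was 0.0512 and 0.101 without Stat5a-/- replicates 1 and 2, and 0.0956 and 0.079 without Stat5b-/- replicates 1 and 3.

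RefSeq's promoter table holds 7 of the 9 members, and Insr and Pdgfrb are not among them. The 250 bases before the Flt3 start are shown because Flt3 was the member called in all 3 comparisons. STAT dimers bind palindromes of the form TTCNNNGAA, which reads the same on both strands. Any match would stand in capitals. The sequences below run on the gene's strand (GRCm38.p6), at chr5:147400490-147400739 (minus) for Flt3 and at chr7:67952007-67952256 (plus) for Igf1r, the other member called.
Flt3: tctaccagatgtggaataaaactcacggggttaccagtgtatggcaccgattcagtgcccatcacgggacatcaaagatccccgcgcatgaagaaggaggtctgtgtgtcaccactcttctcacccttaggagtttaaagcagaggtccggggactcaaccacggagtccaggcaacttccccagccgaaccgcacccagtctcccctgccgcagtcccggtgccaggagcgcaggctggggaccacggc
Igf1r: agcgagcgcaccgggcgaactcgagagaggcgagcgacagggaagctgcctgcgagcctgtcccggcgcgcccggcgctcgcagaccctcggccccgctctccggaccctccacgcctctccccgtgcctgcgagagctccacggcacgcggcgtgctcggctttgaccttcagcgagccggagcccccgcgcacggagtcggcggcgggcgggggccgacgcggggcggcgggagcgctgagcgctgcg
Neither window held the motif, nor did those of the other 5 matched members, and 7.02% of all 32851 windows of that length held it. The windows differed in base composition. That of Igf1r had 42 CpG dinucleotides and 77.6% G and C, and 99.1% of windows had fewer CpGs. The Flt3 window had 13 CpGs and 59.2% G and C, with fewer CpGs in 68.5% of windows. The RefSeq start of Igf1r lies before the first base of the gene in the deposited tables (chr7:67952827).

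The ligand of Flt3 moved the other way in both knockouts against wt, and the same way as Flt3 between the knockouts. Flt3l was at 16.5, 24.5 and 20.9 CPM in wt, 32.3, 32 and 26.4 in Stat5a-/- and 52.7, 37.7 and 45.7 in Stat5b-/-, with no overlap between the lines. It rose by 0.55 on the log2 scale in Stat5a-/- (SE 0.16, adjusted p = 0.0183) and by 1.13 in Stat5b-/- (SE 0.16, adjusted p = 8.27e-05). It was also higher in Stat5b-/- than in Stat5a-/-, by 0.58 (SE 0.16, adjusted p = 0.0135). The T-cell marker sum moved with Flt3l, highest in the same line and lowest in wt, and with that sum as a covariate the 3 log2 fold changes were 0.19, 0.08 and -0.10 (adjusted p = 0.265, 0.844 and 0.758, edgeR), so that no call was left. The Stat5a-/- call also ended without wt replicate 1 or 3 (adjusted p = 0.0703 and 0.0544) or Stat5a-/- replicate 1 or 2 (0.0777 and 0.0689), and that between the knockouts without Stat5b-/- replicate 1 (0.056).

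Kit, the receptor of stem cell factor, lies on the plus strand of chromosome 5 (chr5:75574916-75656722; ENSMUSG00000005672.12) and stayed below the filter. It had 6, 6 and 5 reads in wt, 6, 7 and 9 in Stat5a-/- and 16, 9 and 5 in Stat5b-/-. On the CPM scale the Stat5a-/- libraries (0.42 to 0.811) lay above those of wt (0.289 to 0.381), and the Stat5b-/- libraries (0.381 to 1.1) spread over both ranges. In a fit without a filter the log2 fold changes were 0.83 for Stat5a-/- (SE 0.53, adjusted p = 0.347, edgeR over 27545 genes), 1.09 for Stat5b-/- (SE 0.50, adjusted p = 0.104) and 0.26 between the knockouts (SE 0.48, adjusted p = 0.807). DESeq2 gave adjusted p-values of 0.397, 0.202 and 0.837. The Stat5b-/- value was 1.39 (adjusted p = 0.0248) only when Stat5b-/- replicate 3 was left out.

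Markers of other Kit-bearing cells were mostly low. Of 12 mast-cell and progenitor markers, 6 to 9 were detected in a library, with Fcer1a and Mecom at 0 reads throughout, and the summed level of 6.98 to 9.13 CPM in wt, 115 to 141 in Stat5a-/- and 39 to 46.4 in Stat5b-/- came mostly from Ly6a (Sca-1). The mast-cell protease Cpa3 was read in every library, with 4 to 9 reads in wt, 5 to 10 in Stat5a-/- and 9 to 17 in Stat5b-/-, and was higher in Stat5b-/- than in wt by 1.26 on the log2 scale (SE 0.38, adjusted p = 0.0164, edgeR). That call ended with DESeq2 (adjusted p = 0.0814), without wt replicate 3 or Stat5b-/- replicate 1 (0.0761 and 0.0814) and with the T-cell covariate (0.86, adjusted p = 0.595). Mcpt4, another mast-cell protease, had 1 to 7, 2 to 4 and 5 to 13 reads in wt, Stat5a-/- and Stat5b-/-. The part of such cells in the Kit reads was not tested. Kitl, which encodes stem cell factor, had 4 reads in all 9 libraries. The neighbors of Kit on the chromosome were as low, with 0 reads for Pdgfra and 11 for Kdr. Flt1, beside Flt3, had 13 reads.

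The receptors of stroma and endothelium were at or near 0. Pdgfrb (chromosome 18, chr18:61045150-61085061) had 2 reads in all, 1 in wt replicate 3 and 1 in Stat5a-/- replicate 1. Tek (chr4:94739289-94874976) had 1 read in each of Stat5a-/- replicates 2 and 3, and Tie1 (chr4:118471191-118490061) had 1 read, in Stat5b-/- replicate 2. All these values lie under the 3 reads that a count of 0 allows, so that no difference between lines was detectable at this depth. Mesenchymal markers beside Pdgfrb included Col3a1 and Pdgfra at 0 reads, and their summed level of 144 to 177, 222 to 268 and 294 to 378 CPM in wt, Stat5a-/- and Stat5b-/- (4 to 7 of 12 detected) was nearly all Thy1, which T cells carry too. Acta2, smooth-muscle actin, was at 0.956, 0.532 and 1.95 CPM on average, higher in Stat5b-/- than in wt (log2 fold change 0.99, SE 0.35, adjusted p = 0.035, edgeR) and than in Stat5a-/- (1.86, SE 0.42, adjusted p = 0.00452). Under the T-cell covariate these values were -0.52 and 0.85 (adjusted p = 0.718 and 0.465). The call against wt also ended with DESeq2 (adjusted p = 0.0875), with the replicate block (0.0529), without wt replicate 1 or 3 (0.117 and 0.0644) and without Stat5b-/- replicate 1 or 3 (0.0945 and 0.103). Des (desmin) had 30, 1 and 1 reads in wt, Stat5a-/- and Stat5b-/-. Endothelial markers summed to 135 to 138, 116 to 125 and 205 to 218 CPM (4 to 11 of 12 detected), mostly from Pecam1, which leukocytes also express, while Cldn5, Emcn, Vwf and Sox17 had 2, 4, 4 and 1 reads over all libraries. The other tested genes of that list, Egfl7 and Tal1, which blood cells can also express, went against the sum in Stat5b-/-. Egfl7 was at 4.37, 2.38 and 0.517 CPM and Tal1 at 9.08, 6.88 and 1.95 CPM in wt, Stat5a-/- and Stat5b-/-, with log2 fold changes of -3.04 and -2.19 for Stat5b-/- against wt (adjusted p = 5.60e-06 and 2.80e-05, edgeR) that were -1.36 and -1.76 (adjusted p = 0.104 and 0.111) with the T-cell covariate.

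**Figure D2:**
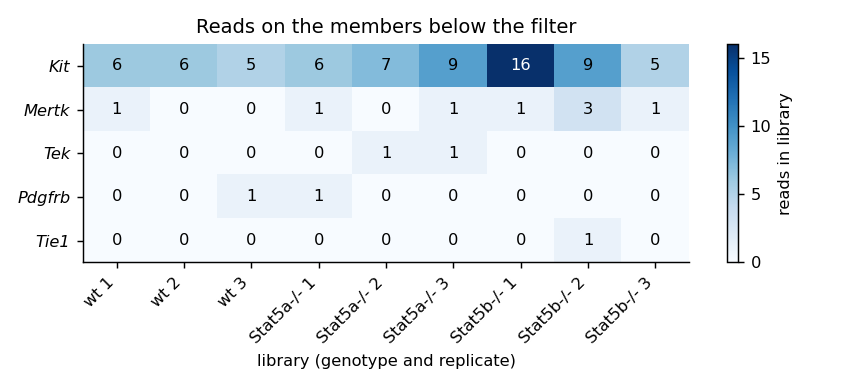
Reads on the 5 members below the filter (rows) in each of the 9 libraries (columns, by genotype and replicate); numbers and color give raw read counts. Kit had 5 to 16 reads in every library, whereas Mertk never exceeded 3 reads and Tek, Pdgfrb and Tie1 never exceeded 1.

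Of 15 ligands of the 9 receptors or of their receptor families, 5 (Flt3l, Pdgfc, Igf1, Angpt1 and Pros1) were tested. Against wt, 1 rose and 3 fell in Stat5a-/- and 2 rose and 2 fell in Stat5b-/-, while between the knockouts Stat5b-/- had the higher level for 3 and the lower for 1, with medians of -1.29, 0.50 and 0.58 on the log2 scale. With the T-cell covariate 0 were higher and 3 lower in Stat5a-/-, 0 and 2 in Stat5b-/- against wt (median 0.08), and 2 and 1 between the knockouts. Angpt1, the agonist of Tek, was at 4.12, 5.4 and 4.62 CPM in wt, 3.36, 3.82 and 2.34 in Stat5a-/- and 8.91, 14.9 and 14.7 in Stat5b-/-. The Stat5b-/- libraries lay above all others, by 1.44 on the log2 scale against wt (SE 0.22, adjusted p = 1.51e-04, edgeR) and by 2.00 against Stat5a-/- (SE 0.24, adjusted p = 3.24e-05). With the T-cell covariate the first of these was 1.59 (adjusted p = 0.0752). Pdgfc, a PDGF family ligand, had 69 reads in wt, 1 in Stat5a-/- and 0 in Stat5b-/-. Its ratio of wt to Stat5a-/- was 49.2 (exact 95% counting interval 8.54 to 1970), and in Stat5b-/- it was at least 18.4-fold lower than in wt, taken against 3 reads over the group (adjusted p = 8.75e-05 and 3.04e-05).

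Insr was the most abundant member, and no comparison called it. The gene (chr8:3122061-3279617, minus strand; ENSMUSG00000005534.10) took 83.8% of the 5466 reads on all 9 members. It was at 37.2, 35.8 and 36.5 CPM in wt, 32.5, 28.3 and 33.0 in Stat5a-/- and 36.4, 37.6 and 29.9 in Stat5b-/-. Although all Stat5a-/- libraries lay below all wt libraries, the difference did not pass the test, with a log2 fold change of -0.22 (SE 0.12, 95% interval -0.47 to 0.03, adjusted p = 0.156, edgeR). For Stat5b-/- it was -0.07 (95% interval -0.32 to 0.17, adjusted p = 0.623) against wt and 0.15 (-0.10 to 0.40, adjusted p = 0.349) against Stat5a-/-. These intervals leave no room for a change of 2-fold in either direction.

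Igf1r, on the plus strand of chromosome 7 (chr7:67952827-68233668; ENSMUSG00000005533.10), was at 1.27, 2.27 and 1.39 CPM in wt, 2.45, 2.03 and 2.34 in Stat5a-/- and 3.98, 2.26 and 4.72 in Stat5b-/-. The order of means was Stat5b-/-, Stat5a-/-, wt, but Stat5b-/- replicate 2 lay at the level of wt replicate 2. In turn, wt replicate 2 (2.27 CPM) lay above Stat5a-/- replicate 2 (2.03 CPM). All 3 pairs of groups thus overlapped, the called pair included. Igf1r was 2.18-fold higher in Stat5b-/- than in wt (log2 fold change 1.12, SE 0.30, 95% interval 0.48 to 1.77, adjusted p = 0.00772, edgeR). The difference was 0.45 (SE 0.32, adjusted p = 0.304) for Stat5a-/- against wt and 0.67 (SE 0.30, adjusted p = 0.103) between the knockouts, the latter being 0.93 (adjusted p = 0.023) without Stat5b-/- replicate 2.

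The T-cell marker sum had the same order as Igf1r between the lines, and in part within them. Within wt the library with the highest sum, replicate 2, had the highest Igf1r, and within Stat5b-/- the library with the lowest sum, again replicate 2, had the lowest Igf1r, although its highest sum (replicate 1) did not go with its highest Igf1r (replicate 3). Within Stat5a-/- the order was not shared, since the library with the highest sum, replicate 2, had the lowest Igf1r. Libraries of a line also differed by the GC content of genes. The deviation from the line's mean correlated with GC content at 0.47, -0.48 and -0.06 in wt replicates 1 to 3. In Stat5a-/- these values were -0.35, -0.31 and 0.52, and in Stat5b-/- 0.32, 0.16 and -0.45. The part of this in the order within lines was not tested. With the sum as a covariate the value for Stat5b-/- against wt was -0.52 (adjusted p = 0.61), so that the call ended and the sign turned. The 89, 86 and 153 reads behind Igf1r in wt, Stat5a-/- and Stat5b-/- limit its precision.

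**Figure D3:**
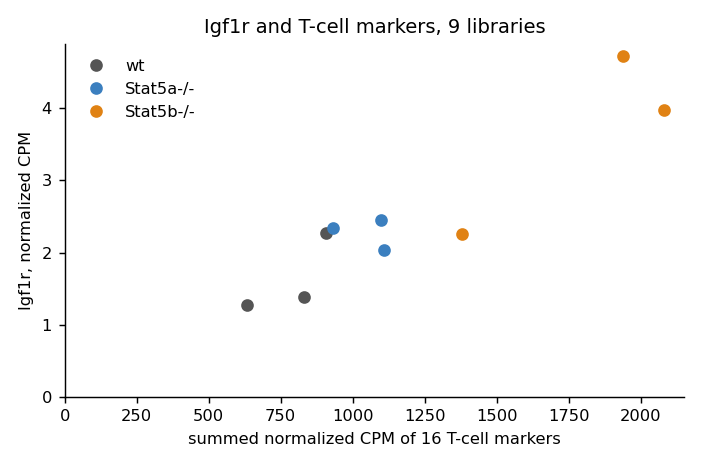
Igf1r level (y axis, normalized CPM) against the summed level of 16 T-cell markers (x axis, normalized CPM) in the 9 libraries, colored by genotype. Stat5b-/- replicates 1 and 3 stand highest on both axes (2080 and 3.98 CPM, 1940 and 4.72 CPM), and wt replicate 1 lowest on both (634 and 1.27 CPM).

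Against wt, the docking protein Irs1 differed in both knockouts, and the adaptor Grb10 in Stat5b-/-, by more than either receptor. Irs1, which links both receptors to PI3K, was at 9.45, 7.17 and 8.84 CPM in wt and was reduced to 3 reads in all in each knockout line. The ratio of wt to Stat5a-/- was 105 (exact 95% counting interval 35.9 to 513) and that of wt to Stat5b-/- 119 (40.3 to 577), with adjusted p-values of 8.64e-08 and 5.28e-08 (edgeR). Irs2, its relative, was at 25.1, 23.7 and 23.5 CPM in wt, 46.3, 50.8 and 60.0 in Stat5a-/- and 41.4, 40.1 and 29.0 in Stat5b-/-. All libraries of both knockouts exceeded wt, by 1.12 on the log2 scale (SE 0.14, adjusted p = 4.10e-05) and 0.61 (SE 0.14, adjusted p = 0.00367), the latter being 0.98 (adjusted p = 0.081) under the T-cell covariate.

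Grb10, an adaptor that binds Insr and Igf1r and damps their signal, was at 92.9, 96.4 and 94.3 CPM in wt, 65.4, 66.7 and 59.8 in Stat5a-/- and 0.549, 0.683 and 0 in Stat5b-/-. It was nearly absent from Stat5b-/- alone. The log2 fold change was -7.77 against wt (SE 0.29, adjusted p = 4.32e-10) and -7.21 against Stat5a-/- (SE 0.29, adjusted p = 1.45e-09), and these held with the covariate at -7.82 and -7.24. The smaller fall in Stat5a-/- (-0.56, SE 0.17, adjusted p = 0.0206) kept its size with the covariate (-0.58) but not its call (adjusted p = 0.105), and the call also ended without wt replicate 2 or 3 (adjusted p = 0.0521 and 0.0685).

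Of the ligands of Insr and Igf1r, Ins1 and Ins2 had 0 reads, Igf2 stayed below the filter and Igf1 was low. Igf2 had 29, 7 and 9 reads over the libraries of wt, Stat5a-/- and Stat5b-/-. Igf1 was at 1.97, 2.22 and 1.73 CPM in wt, 0.909, 0.407 and 0.541 in Stat5a-/- and 2.40, 2.53 and 3.50 in Stat5b-/-. It fell by 1.63 on the log2 scale in Stat5a-/- against wt (SE 0.33, adjusted p = 0.00148) and was 2.13 higher in Stat5b-/- than in Stat5a-/- (SE 0.32, adjusted p = 2.14e-04). Igf2r, which takes up IGF2 for degradation, was at 38.8 ± 2.75 CPM in wt, 75.8 ± 9.80 in Stat5a-/- and 11 ± 2.98 in Stat5b-/-, and so went in opposite directions in the knockouts. It lay 1.82 lower on the log2 scale in Stat5b-/- than in wt (log2 fold change -1.82, SE 0.18, adjusted p = 2.49e-06) and differed by -2.79 between Stat5b-/- and Stat5a-/- (SE 0.18, adjusted p = 8.74e-08).

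Among 13 genes of the IGF axis (binding proteins, clearance and RNA-binding proteins), 5 were tested, Igf2r included. In Stat5a-/- 4 rose and 1 fell against wt, with a median log2 fold change of 1.03 beside 0.01 over all genes, and in Stat5b-/- 2 rose and 3 fell, with a median of -0.41 beside 0.02. Between the knockouts 1 was higher and 2 lower in Stat5b-/- (median 0.01, beside 0.02). These counts were 4 and 1, 2 and 1, and 0 and 2 with the T-cell covariate. Igfbp4, which holds IGFs away from the receptor, rose from 34.8 ± 5.66 CPM to 82.7 ± 3.46 and 114 ± 18.1. Ide, an insulin-degrading protease, was at 457 ± 41.9, 931 ± 94.6 and 344 ± 39.3 CPM, higher in Stat5a-/- (adjusted p = 1.66e-05) and lower in Stat5b-/- (log2 fold change -0.41, adjusted p = 0.0127), where the value with the covariate was -0.67 (adjusted p = 0.148). The RNA-binding proteins Igf2bp2 and Igf2bp3 parted, the first rising from 6.63 ± 1.52 CPM to 18.6 ± 2.04 and 21.2 ± 1.14 and the second falling from 90.2 ± 4.39 to 41.6 ± 1.83 and 41.7 ± 4.77. The Igf2bp3 value in Stat5b-/- was -1.11 on the log2 scale, and -0.67 (adjusted p = 0.0556) with the covariate.

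**Figure D4:**
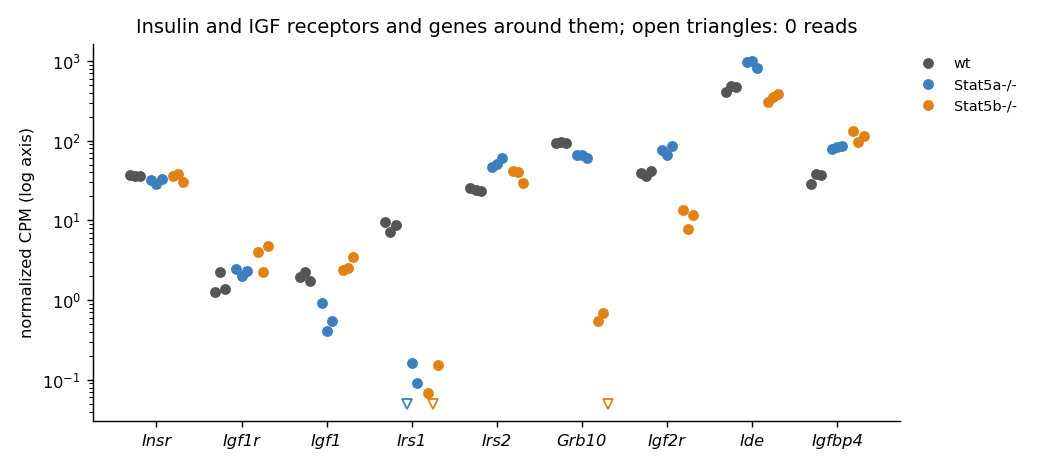
Normalized CPM on a log axis (y) of Insr, Igf1r and 7 genes around them in the 9 libraries, colored by genotype; open triangles at the bottom mark libraries with 0 reads. Insr kept within 28.3 to 37.6 CPM, whereas Irs1 was nearly lost from both knockouts and Grb10 from Stat5b-/- only.

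Axl and Mertk were the TAM receptors among the members. Axl (chr7:25757273-25788705, minus strand; ENSMUSG00000002602.16) was at 0.571, 0.758 and 1.04 CPM in wt, 1.26, 0.895 and 0.451 in Stat5a-/- and 2.47, 0.683 and 1.22 in Stat5b-/-. The 3 groups overlapped, and 5 to 36 reads lay behind each value. The log2 fold change was 0.17 (95% interval -0.93 to 1.27, adjusted p = 0.827, edgeR) for Stat5a-/- and 0.87 (-0.11 to 1.86, adjusted p = 0.136) for Stat5b-/- against wt, and 0.70 (-0.32 to 1.73, adjusted p = 0.277) between the knockouts. Without Stat5b-/- replicate 2 the second was 1.22 (adjusted p = 0.037), and with the T-cell covariate it was -1.99 (adjusted p = 0.201). Mertk (chr2:128698956-128802894) had 8 reads in all, 1 in wt, 2 in Stat5a-/- and 5 in Stat5b-/-.

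Macrophage markers were mixed. Of 12, 8 were tested, and 0 rose and 3 fell in Stat5a-/- against wt, 3 rose and 2 fell in Stat5b-/- against wt (median log2 fold change 0.54), and 3 were higher and 0 lower in Stat5b-/- against Stat5a-/-. With the T-cell covariate these counts were 0 and 3, 0 and 1 (median 0.12), and 1 and 0. Lyz2 (lysozyme) was at 3.90, 4.25 and 8.23 CPM on average in wt, Stat5a-/- and Stat5b-/-, and C1qb (complement) at 0.411, 0.46 and 0.941. Both were highest where the Axl mean was highest, as were Csf1r and Timd4 (2.01, 2.41 and 3.14 CPM). The other tested markers were not. Mrc1 (the mannose receptor) was at 21.4, 2.58 and 7.47 CPM, Fcgr1 at 1.45, 0.292 and 0.162 and Cd68 at 12.9, 8.95 and 10.9, all highest in wt. C1qc, also of complement, was highest in Stat5a-/- (0.563, 1.05 and 0.743 CPM). With the covariate the Stat5b-/- against wt values of Lyz2 and C1qb were 0.63 and 0.58 (adjusted p = 0.426 and 0.726), beside 1.07 and 1.17 without it. The C1qb call also ended with DESeq2 (adjusted p = 0.111), without wt replicate 1 or 3 (0.0602 and 0.0823) and without Stat5b-/- replicate 1 or 2 (0.0711 and 0.054). That of Csf1r against wt ended with DESeq2 (adjusted p = 0.0632), without wt replicate 1 (0.0532), without Stat5b-/- replicate 1 (0.0612) and with the covariate (0.578). The part of macrophage transcripts in the Axl values was not tested. The summed level, to which Mrc1 gave most in wt and Cd68 most in both knockouts, was 43.1 to 44.2 CPM in wt, 19.7 to 22.3 in Stat5a-/- and 30.5 to 36.1 in Stat5b-/- (9 to 12 of 12 detected), with Cd14 at 3 reads, C1qa at 16 and Adgre1 at 22 over all libraries. The TAM ligands diverged. Gas6 had 1 read, whereas Pros1 (protein S) was at 14.8, 15.4 and 14.6 CPM in wt, 6.29, 7.08 and 4.87 in Stat5a-/- and 1.10, 0.410 and 0.533 in Stat5b-/-. Each line was lower than the one before, by log2 fold changes of -1.29 for Stat5a-/- (SE 0.19, adjusted p = 1.42e-04, edgeR) and -4.43 for Stat5b-/- against wt (SE 0.26, adjusted p = 2.05e-08) and -3.14 between the knockouts (SE 0.28, adjusted p = 2.43e-06), and these calls held with the covariate. The remaining TAM receptor, Tyro3, was at 9.50 ± 0.952 CPM in wt, 7.86 ± 0.503 in Stat5a-/- and 3.61 ± 1.04 in Stat5b-/-. It fell in Stat5b-/- (-1.39, SE 0.19, adjusted p = 6.23e-05), and the value with the covariate was -1.46 (adjusted p = 0.0642).

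**Figure D5:**
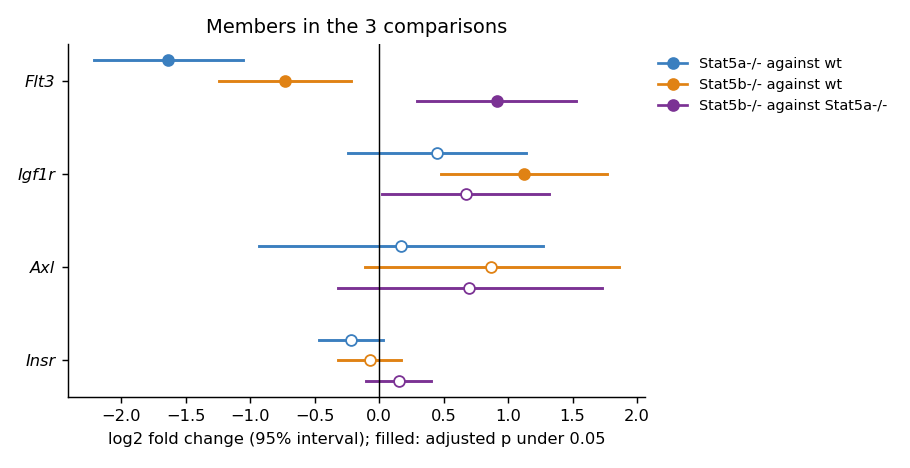
Log2 fold changes (x axis) with 95% intervals of the 4 tested members in the 3 comparisons; filled points passed an adjusted p of 0.05. All 3 intervals of Flt3 exclude 0, those of Insr are the narrowest, and those of Axl all include 0.

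Per kilobase of exon, a scale on which genes can be compared, Insr led the members with 2.66, 2.28 and 2.52 CPM per kilobase in wt, Stat5a-/- and Stat5b-/-. Flt3 followed with 0.602, 0.193 and 0.365, ahead of Axl (0.157, 0.172 and 0.289), Igf1r (0.0978, 0.136 and 0.217) and Kit (0.0364, 0.0674 and 0.0783). Among all 58 receptor tyrosine kinases listed, Insr ranked 4, Flt3 6, Axl 9, Igf1r 14 and Kit 19 in mean level over the 9 libraries. The order differed by line, since Ephb4 stood at 13 in wt and at 2 in both knockouts. In wt, Stat5a-/- and Stat5b-/-, Insr ranked 2, 4 and 4, Flt3 6, 8 and 6, Axl 12, 10 and 7, Igf1r 16, 13 and 11 and Kit 18, 17 and 17. All were modest in these cells, since Insr stood at percentile 33.4 of tested genes and Flt3, Axl and Igf1r at 7.9, 3.7 and 2.2.

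The 49 receptor tyrosine kinases outside the 9 included larger differences. Of 14 tested, 4 were higher and 3 lower in Stat5a-/- against wt, 6 and 4 in Stat5b-/- against wt, and 5 and 2 in Stat5b-/- against Stat5a-/-. Their medians were 0.09, 0.26 and 0.13 on the log2 scale. Over all tested genes 19.8% and 16.3%, 24.2% and 22%, and 16.4% and 17.5% were called higher and lower. The counts among the 14 became 3 and 3, 3 and 1, and 2 and 1 with the T-cell covariate. Ephb4, an ephrin receptor, was at 0.706 ± 0.180 CPM in wt but 55.1 ± 9.93 in Stat5a-/- and 41.4 ± 8.74 in Stat5b-/-, a log2 rise of 6.25 (SE 0.25, adjusted p = 5.96e-10) and 5.84 (SE 0.25, adjusted p = 1.20e-09). Ltk rose from 2.73 ± 0.292 CPM to 10.4 ± 1.80 and 18.2 ± 3.35. Ros1 had 0 reads in wt and 56 and 23 in the knockouts, at least 26.2-fold and 9.57-fold higher. Epha5 had 145 reads in wt and 0 in both knockouts, at least 34.4-fold and 38.7-fold lower, while Fgfr2 had 102, 0 and 9 reads and Epha2 228, 5 and 27. Csf1r, the macrophage receptor next to Pdgfrb, was at 0.653 ± 0.188, 0.743 ± 0.223 and 1.41 ± 0.253 CPM, with an adjusted p of 0.0498 between the knockouts that was above 0.05 under 13 of the alternatives, up to 0.513 with the covariate (log2 fold change 0.92, and 0.70 with it).

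Of 25 adaptors of receptor signaling, 24 were tested. In Stat5a-/- 4 rose and 8 fell against wt, and in Stat5b-/- 9 rose and 6 fell. Between the knockouts 4 were higher and 3 lower in Stat5b-/-, and the 3 medians were -0.04, 0.14 and 0.16. The shares of all tested genes called higher and lower were 19.8% and 16.3%, 24.2% and 22%, and 16.4% and 17.5%. With the T-cell covariate 4 were higher and 4 lower in Stat5a-/-, 3 and 2 in Stat5b-/- against wt, and 0 and 2 between the knockouts. Irs1, Irs2 and Grb10 are described above. Pik3cd, a leukocyte PI3K subunit, rose by 0.92 (SE 0.15, adjusted p = 3.43e-04, edgeR) and 0.64 (SE 0.15, adjusted p = 0.00397) in Stat5a-/- and Stat5b-/-, and the scaffold Gab3 rose by 1.01 in Stat5b-/- (SE 0.22, adjusted p = 0.00247). The Gab3 rise was lost with the T-cell covariate, where its sign turned (-0.40, adjusted p = 0.50).

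All 23 of 23 negative regulators were tested. More of them rose than fell against wt, 11 and 3 in Stat5a-/- and 13 and 2 in Stat5b-/-. Over all tested genes, 19.8% and 16.3% were called higher and lower in Stat5a-/-, and 24.2% and 22% in Stat5b-/-. The medians of the 23 were 0.30 and 0.50, beside 0.01 and 0.02 over all genes. Between the knockouts 5 were higher and 3 lower in Stat5b-/- (median 0.12). With the T-cell covariate the counts were 11 and 2 for Stat5a-/- (median 0.37), 5 and 2 for Stat5b-/- against wt (median 0.67) and 2 and 2 between the knockouts. Spry1, a feedback inhibitor of RAS signaling, was at 17.2, 42.8 and 35.1 CPM on average in wt, Stat5a-/- and Stat5b-/-. Dok1, a docking inhibitor, was at 7.59, 18.3 and 18.6 CPM. Lrig1, which promotes receptor degradation, was at 0.825, 1.97 and 3.91 CPM, with a log2 fold change of 2.22 in Stat5b-/- against wt (adjusted p = 8.61e-06) that was 1.67 (adjusted p = 0.0681) with the covariate. Against these, Errfi1, an inhibitor of the EGF receptor, fell from 5.84 to 1.51 and 2.06 CPM, and Spred1, a further RAS inhibitor, from 180 to 95.8 and 100 CPM.

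The genes whose levels were most like those of Flt3 across the 9 libraries were Ddx3y on the Y chromosome, Gm11451 and Klf3 (Pearson r of 0.981, 0.981 and 0.98 on the log2 scale). For Igf1r they were Gm12185, Ms4a6d and Gm38253 (0.988, 0.979 and 0.976). As many as 176 and 169 genes exceeded an r of 0.9 with Flt3 and Igf1r, and the 9 points come from 3 lines. On chromosomes 5, 7 and 8, which carry Flt3 and Kit, Igf1r and Axl, and Insr, the median log2 fold change of tested genes lay between -0.05 and 0.08 in all 3 comparisons.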

How the data were processed

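RNA-seq (SENSE mRNA-Seq kit, 50 bp single-end) was analysed in 9 libraries of BCR/ABLp185+ bone marrow cell lines, grouped by genotype as the titles and genotype labels give it. The description label of the knockout samples reads wt, in conflict with both. The authors trimmed reads with Trimmomatic, mapped them with STAR to GRCm38 with GENCODE gene models and deposited raw counts per gene from featureCounts 1.5.1, summed over exons, without strand and without multi-mapped reads as far as its recorded options show. Symbols named 50376 of 50686 genes.

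Counts were normalized with TMM, filtered with filterByExpr and tested with edgeR 4.0.16 (glmQLFit and glmQLFTest, all 9 libraries, R 4.3.3). P-values were adjusted by Benjamini-Hochberg over 13852 genes, and an adjusted p under 0.05 was a call. Standard errors were derived from the fold change and the F statistic. Levels per kilobase are CPM over union exon length. The steps were tested on simulated data. Alternatives were DESeq2 1.42.0, RLE normalization, other low-count filters (none, or an average of 10 reads), fits restricted to a pair of genotypes, each library left out, the replicate block and a fold above 2. An offset for GC content (loess span 0.5) and the T-cell marker covariate were added after seeing the data.

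Members and gene lists were chosen with earlier results of these data known. Named were all members, their chromosomal neighbors and the 3 genes most like each called member. From each list other than the markers, names came from the 3 called genes per direction and comparison with the largest change. Not all of these were named, and a named gene was also described in other comparisons. Among those left out were Plcg1 and Dok3, higher in Stat5b-/- than in wt by 0.66 and 1.18 on the log2 scale. Further list genes (Kitl, Ins1, Ins2, Igf2, Gas6, Tyro3 against wt and marker genes) were named after their values were seen. No molecular identifiers are named in the sources used here, so that intervals and floors cover counting error only.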

Additional observations from a re-analysis of the deposited data

How the results depend on the processing

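Under 17 alternatives, the lower Flt3 in Stat5a-/- against wt held in all, with adjusted p-values from 7.04e-08 to 0.00247. The higher Igf1r in Stat5b-/- against wt held in 16, and with the T-cell marker covariate it was -0.52 (adjusted p = 0.61). DESeq2, RLE normalization, the other filters, the fit of only the 2 genotypes and the GC offset left every count of called members within 1.5 times its value. In Stat5b-/- against wt, leaving out a library gave 1 to 2 members higher (Axl added without Stat5b-/- replicate 2, Kit without replicate 3) and 0 to 1 lower, the covariate gave 0 higher, and a fold above 2 gave 0 lower. In Stat5b-/- against Stat5a-/-, leaving out a library gave 0 to 2 higher, and both the covariate and a fold above 2 gave 0 higher. Signs turned with the covariate for Igf1r in Stat5a-/- against wt (-0.10, adjusted p = 0.842) and between the knockouts (-0.43, adjusted p = 0.601), for Axl in the 3 comparisons (-0.78, -1.99 and -1.21) and for Insr in Stat5b-/- against wt (0.18). They also turned for Axl in Stat5a-/- against wt without Stat5a-/- replicate 1 (-0.24, up to 0.42 without replicate 3) and for Insr in Stat5b-/- against wt without Stat5b-/- replicate 3 (0.02, down to -0.14 without replicate 1). None of these reversed values passed the test, and the cause was not tested. Of 88 calls of 37 other named genes, 5 turned sign and 27 were lost with the covariate. The signs were those of Acta2 against wt (-0.52), Flt3l (-0.10) and Igfbp4 (-0.04) between the knockouts, and Gab3 against wt (-0.40) and between the knockouts (-0.02) for Stat5b-/-. A lost call did not always mean a smaller change. In Stat5b-/- against wt, Angpt1 went from 1.44 to 1.59, Irs2 from 0.61 to 0.98 and Tyro3 from -1.39 to -1.46. By contrast, Flt3l went from 1.13 to 0.08 and Lyz2 from 1.07 to 0.63.

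With the replicate block, 0 members were higher and 1 lower in Stat5a-/- against wt, 1 and 1 in Stat5b-/- against wt, and 1 and 0 between the knockouts, as without it, and of the other named calls only those of Csf1r between the knockouts (0.93, adjusted p = 0.0894) and Acta2 in Stat5b-/- against wt (0.99, adjusted p = 0.0529) were lost. The replicate numbers did not pair the samples, since deviations of same-numbered libraries correlated at a mean of -0.088 (-0.445 to 0.216, 9 pairs). Depth limits the members other than Insr, with 12 to 79 reads a library for Flt3 and 20 to 62 for Igf1r.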
